A study of Homo sapiens with 4 samples.

Results

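The unfolded protein response and ER-associated degradation were examined through 10 genes, SEL1L, SYVN1, DERL1, DERL2, HERPUD1, HSPA5, XBP1, ATF4, DDIT3 and TRIB3, on arrays of H1299 lung cancer cells. The genes were chosen by name with earlier results of these same arrays known, among them the brightness of SEL1L on 1 array, so their values are a description and carry no test. The array named 11 probes for them, 2 for SYVN1 and 1 for each of the others, out of 15240 named genes and 30968 probes in all.

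H1299 is an established human non-small cell lung cancer line. It was stably transfected with a reporter in which the promoter of Oct4, a transcription factor of pluripotent cells, or of Nestin, an intermediate filament of neural progenitors, drives green fluorescent protein (GFP). The 4 populations were 2 with GFP, Oct4/GFP (+) and Nestin/GFP (+), and 2 without it, Oct4/GFP (−) and Nestin/GFP (−). The GFP (+) cells were sorted by FACS for high GFP, and the labels give 24 hours in medium with 5% serum for all 4. The sources do not settle whether the GFP (−) arrays held sorted cells that had lost GFP or cells that never activated the reporter. In other experiments the paper took GFP (−) cells from sorted GFP (+) cells kept in culture. Its array methods describe only the GFP (+) cells. A reporter marks the activity of its promoter, not the protein of the gene itself.

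Total RNA of each population was hybridised to 1 one-colour array, so no difference below has a replicate error, a p-value or a standard error. A difference between arrays of bulk RNA also cannot separate fewer cells with a transcript from less of it per cell. The 4 comparisons share arrays with one another, so their values are given side by side and are not independent. The study compared Oct4/GFP (+) with Nestin/GFP (+) cells to find the genes that separate these populations, and the GFP (−) arrays allow the same lines to be compared by GFP state.

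Values are fluorescence intensities from which a background had been subtracted, so that dim probes fall around 0. Above background means here an intensity over 3 times the array's noise, which was the root mean square of all negative values. The limit came to 15.3 for the Oct4/GFP (+) array, 22.7 for the Nestin/GFP (+), 13.9 for the Oct4/GFP (−) and 20.3 for the Nestin/GFP (−) array, and 27.9%, 26.3%, 19.5% and 29.1% of probes passed it in that order. The Oct4/GFP (−) array was the dimmest, with a 99th percentile of 260.0, and the Nestin/GFP (+) array the brightest, with 1395. Without further scaling, the median log2 difference of probes above background on both arrays was −0.93 for Oct4/GFP (+) over Nestin/GFP (+), 1.03 for Oct4/GFP (+) over Oct4/GFP (−), 0.29 for Nestin/GFP (+) over Nestin/GFP (−) and −1.67 for Oct4/GFP (−) over Nestin/GFP (−). Differences on the deposited values, where they are given below, carry these shifts. The main differences were therefore taken after quantile normalization, which gives the 4 arrays the same distribution, and are given on the log2 scale or as folds. A probe under its limit was set to a floor, the lowest normalized value above the limit on that array, and a difference against such a floor is written as "at least". The Oct4/GFP (+) array stood apart from the other 3: of 964 probes bright on every other array, 60 were over 8-fold lower there, against 1 of 890, 2 of 914 and 0 of 893 on the Nestin/GFP (+), Oct4/GFP (−) and Nestin/GFP (−) arrays. None of those 60 belonged to a gene of the pathway lists described here. Bright means a normalized value of at least 200 on each other array. HERPUD1, DERL2, DDIT3, TRIB3 and ATF4 did not reach this on every other array and so could not be counted. Of 9 markers of the line and of other cell types, 6 had a named probe: VIM, the mesenchymal filament, was above background on all 4 arrays, while EPCAM, NKX2-1, SFTPC and the leukocyte gene PTPRC were at none. COL1A1, a collagen of fibroblasts, read 9 in Oct4/GFP (+), 26 in Nestin/GFP (+), 14 in Oct4/GFP (−) and 14 in Nestin/GFP (−) cells and was just above the limit on the Nestin/GFP (+) and Oct4/GFP (−) arrays; its part in the results was not tested.

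The endoplasmic reticulum folds secreted and membrane proteins with the help of chaperones such as HSPA5. When unfolded protein builds up, the sensors IRE1, PERK and ATF6 are activated: IRE1 splices the mRNA of XBP1, PERK slows translation but lets ATF4 be made, and ATF6 is cut to release a transcription factor. Their targets include folding enzymes and the machinery of ER-associated degradation, in which the SEL1L and SYVN1 complex ubiquitinates misfolded protein for the proteasome. ATF4 also answers amino acid shortage, outside the ER, through what is called the integrated stress response, and drives DDIT3, TRIB3 and genes of amino acid supply such as ASNS.

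Promoter sequence was taken from RefSeq for the genes on which the results below turn or which carry a known stress element, to show where the letters of those elements lie. Windows of 300 bases, 250 before and 50 after each annotated start (build GRCh38.p14), were held for 9 of the 10 genes. Both strands were searched for the ER stress element (CCAAT, 9 bases, CCACG), ER stress element II (ATTGG, 1 base, CCACG), the UPR element (TGACGTGG) and the ATF4 composite site (TGATG, 1 base, AA). HERPUD1 held element II and an ATF4 composite site, and HSPA5 and XBP1 each held the ER stress element. The other chosen genes with windows, among them SEL1L and the ATF4 targets DDIT3 and TRIB3, held none of these elements there. Of 61 other pathway genes with windows, 6 held the composite site: ASNS, ATF3, CEBPG, CHAC1, PPP1R15B and SLC3A2. The ER stress element was in 6 of the 61, element II in 2 and the UPR element in 4. Of these genes only ASNS, an ATF4 target, is printed. Capitals mark the matched letters, each with up to 30 bases on either side, 5′ to 3′ on the strand of the gene. HERPUD1 lies at chr16:56931936-56932065 (+), HSPA5 at chr9:125241361-125241439 (−), XBP1 at chr22:28800573-28800651 (−) and ASNS at chr7:97872439-97872506 (−).
HERPUD1: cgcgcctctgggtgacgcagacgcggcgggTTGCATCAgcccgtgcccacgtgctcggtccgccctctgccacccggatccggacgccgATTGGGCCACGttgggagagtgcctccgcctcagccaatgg
HSPA5: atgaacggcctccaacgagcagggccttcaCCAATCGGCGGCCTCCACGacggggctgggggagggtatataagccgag
XBP1: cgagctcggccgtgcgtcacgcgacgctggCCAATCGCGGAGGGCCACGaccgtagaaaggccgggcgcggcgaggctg
ASNS: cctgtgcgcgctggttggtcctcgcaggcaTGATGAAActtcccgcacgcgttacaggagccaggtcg

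The composite site of HERPUD1 is written here as its reverse complement and began 176 bases before the start, and its element II began 117 bases before it. The ER stress element began 66 bases before the start in HSPA5 and 52 bases before it in XBP1, and the composite site of ASNS began 68 bases before it. None of these matches overlapped another. Among 35116 RefSeq promoter windows, the ER stress element was in 0.0769%, element II in 0.0541%, the UPR element in 0.729% and the composite site in 3.62%. No UPR element was found in the 14 windows of the 9 genes. A match is a description of letters, and no binding was measured.

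SEL1L, the adaptor that holds the ubiquitin ligase SYVN1 in its complex, had the widest difference of the 10 genes. Its probe read 1812 in Oct4/GFP (+) cells, against −4 in Nestin/GFP (+), −9 in Oct4/GFP (−) and −1 in Nestin/GFP (−) cells. The probe was thus bright on 1 array and at background on the other 3. After normalization Oct4/GFP (+) cells exceeded Nestin/GFP (+) cells at least 113-fold and Oct4/GFP (−) cells at least 68.1-fold. Only 7 of the 30968 probes exceeded each other array by over 16-fold on the Oct4/GFP (+) array, against 0, 2 and 0 probes that did so on the Nestin/GFP (+), Oct4/GFP (−) and Nestin/GFP (−) arrays. With 1 probe for the gene and 1 array per population, the arrays alone cannot tell a property of that spot from a level of the transcript. The paper also measured SEL1L by quantitative PCR in sorted GFP (+) cells. The paper selected the genes for this PCR partly for a large difference in expression, so SEL1L was not picked independently of the arrays. It reports an excess of more than 3-fold for the Oct4 reporter population against the Nestin one, with n = 2. The direction was that of the arrays, where the bound was at least 113-fold. How these sizes relate was not tested. The paper describes no such PCR of SEL1L in GFP (−) cells.

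SYVN1 and DERL1, partners of SEL1L in the complex, were at or near background on every array. SYVN1, the ligase also known as HRD1, read 17 on the Oct4/GFP (+) array at its brighter probe, just past the limit, and 11, 4 and 9 in Nestin/GFP (+), Oct4/GFP (−) and Nestin/GFP (−) cells, all under it. Its second probe read 10, 7, 2 and 8 over the same arrays and was above background on none, so no fold is given for SYVN1. DERL1, a membrane protein of the channel through which substrates leave the ER, read 12, 7, 2 and 14 and was also above background on none.

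DERL2, the related derlin, showed the opposite pattern to SEL1L. It read 6 in Oct4/GFP (+) cells, under the limit, against 115 in Nestin/GFP (+), 23 in Oct4/GFP (−) and 83 in Nestin/GFP (−) cells. Normalized, the 3 measured arrays lay close together at 73.6, 61.6 and 63.1, in that order. DERL2 in Oct4/GFP (+) cells was at least 4.22-fold below its level in Nestin/GFP (+) cells. Against Oct4/GFP (−) cells it was at least 3.53-fold lower, a bound that passed 2-fold under 3 of the 6 other settings that gave it a value. Its log2 difference was 0.22 for Nestin/GFP (+) over Nestin/GFP (−) and −0.04 for Oct4/GFP (−) over Nestin/GFP (−).

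HERPUD1, an ER membrane protein with a ubiquitin-like domain that helps to assemble the SYVN1 complex, was measured on all 4 arrays. It read 33 in Oct4/GFP (+), 539 in Nestin/GFP (+), 50 in Oct4/GFP (−) and 132 in Nestin/GFP (−) cells, or 42.4, 309.0, 143.9 and 104.4 once normalized. It was thus lowest in Oct4/GFP (+) and highest in Nestin/GFP (+) cells. It was 7.29-fold lower in Oct4/GFP (+) cells than in Nestin/GFP (+) cells and 3.39-fold lower than in Oct4/GFP (−) cells, while Nestin/GFP (+) cells were 2.96-fold above Nestin/GFP (−) cells. Under 8 other settings the first difference ranged between −4.03 and −1.96 and the Nestin difference between 1.22 and 2.39, while the difference in the Oct4 line ranged between −1.76 and −0.60 and was past 2-fold in 7 of 8. The log2 difference of Oct4/GFP (−) over Nestin/GFP (−) was 0.46 and turned negative in 2 of the 8 settings, down to −1.40. Among 3980 probes above background on all 4 arrays, 202, or 5.08%, had, like HERPUD1, an Oct4/GFP (+) value over 2-fold under that of each other array, against 1.93%, 2.49% and 1.06% with that pattern on the Nestin/GFP (+), Oct4/GFP (−) and Nestin/GFP (−) arrays.

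HSPA5, the chaperone BiP that binds unfolded protein and holds the sensors inactive, read −1 in Oct4/GFP (+), 1 in Nestin/GFP (+), −1 in Oct4/GFP (−) and −4 in Nestin/GFP (−) cells. The gene is a textbook reporter of ER stress, and its probe gave no reading above background on any array, so these data hold no level for it. HSP90B1, the other abundant chaperone of the ER lumen, read 1453, 2345, 630 and 2058 over the same arrays, and was named for this contrast after its values were seen.

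**Figure D1:**
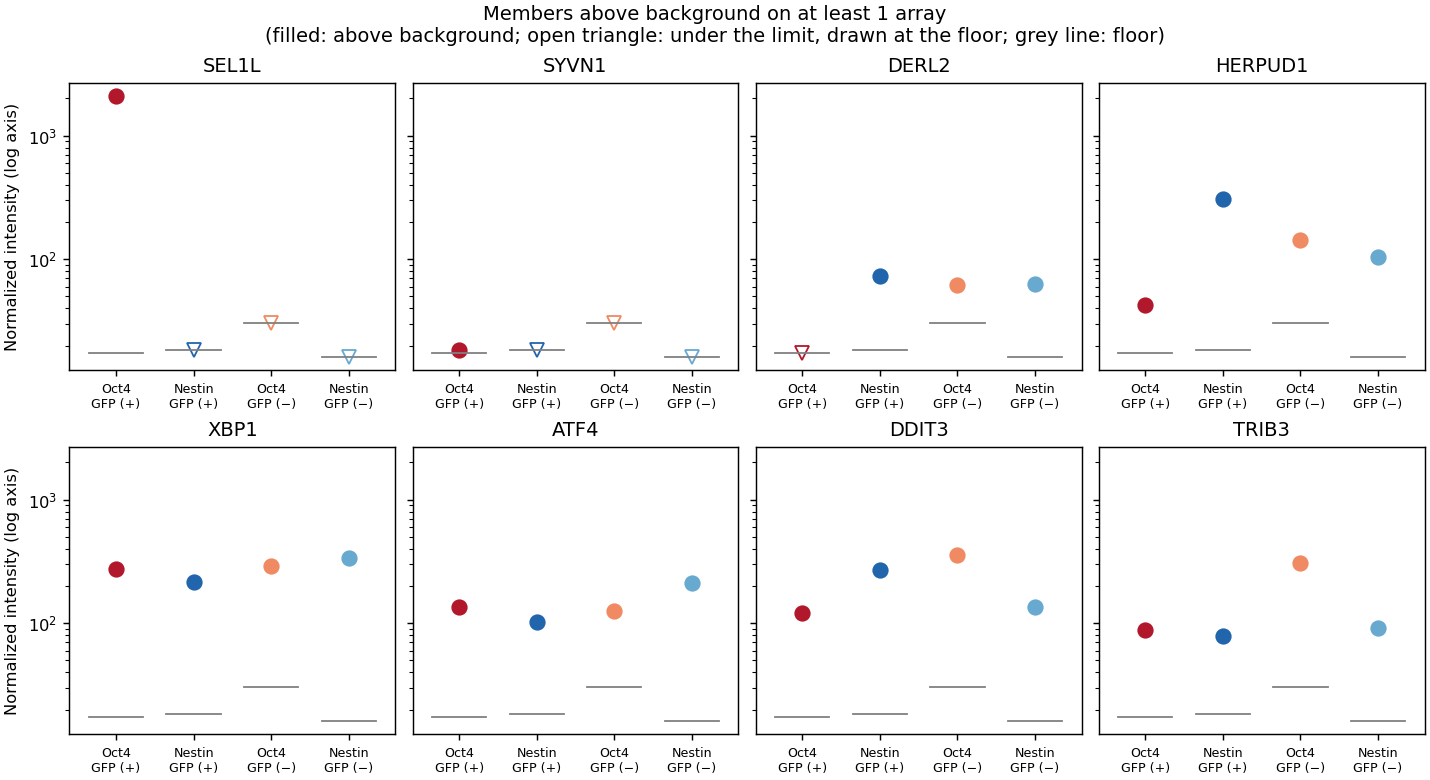
Normalized intensity (log axis) of the 8 genes above background on at least 1 of the 4 arrays, 1 point per array; from the left stand both GFP (+) and then both GFP (−) arrays, each pair with Oct4/GFP first. Open triangles stand at the floor for probes under the limit and grey lines mark each array's floor. SEL1L is above background on the Oct4/GFP (+) array alone, at 2084, and HERPUD1 spans 42.4 to 309.0.

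The 4 genes of the transcriptional arm were above background on all 4 arrays. XBP1, the factor spliced by IRE1, read 189 in Oct4/GFP (+), 370.0 in Nestin/GFP (+), 91 in Oct4/GFP (−) and 432 in Nestin/GFP (−) cells, or 274.9, 213.9, 288.3 and 339.8 once normalized. With quantile normalization its differences were all under 2-fold: 0.36 for Oct4/GFP (+) over Nestin/GFP (+), −0.07 for Oct4/GFP (+) over Oct4/GFP (−), −0.67 for Nestin/GFP (+) over Nestin/GFP (−) and −0.24 for Oct4/GFP (−) over Nestin/GFP (−) on the log2 scale. The sign of the first 3 differed in 2, 3 and 1 of the 8 other settings. The second reached 1.05 on the deposited values, and the last was past 2-fold lower in 2 of 8 settings, at −2.25 on the deposited values. The intensity says nothing of splicing or of protein.

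ATF4, the factor translated when PERK or another eIF2α kinase is active, read 91, 168, 44 and 267 over the same order of arrays, or 135.9, 101.8, 124.7 and 209.6 once normalized. Its level was highest in Nestin/GFP (−) cells. It was 2.06-fold lower in Nestin/GFP (+) cells than in Nestin/GFP (−) cells, just past 2-fold, and 5 of 8 other settings kept it there. The other log2 differences were 0.42 for Oct4/GFP (+) over Nestin/GFP (+), which turned negative in 2 of 8 settings, down to −0.88, then 0.12 for Oct4/GFP (+) over Oct4/GFP (−) and −0.75 for Oct4/GFP (−) over Nestin/GFP (−). On the deposited values these last were 1.05 and −2.60, and they were past 2-fold in 1 and 2 of 8 settings.

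DDIT3, the factor CHOP that is induced under prolonged stress, read 83 in Oct4/GFP (+), 462 in Nestin/GFP (+), 111 in Oct4/GFP (−) and 173 in Nestin/GFP (−) cells, or 120.7, 267.3, 354.7 and 135.8 once normalized. The normalized values thus fell into a higher pair, Nestin/GFP (+) and Oct4/GFP (−), and a lower pair. DDIT3 was 2.22-fold lower in Oct4/GFP (+) cells than in Nestin/GFP (+) cells, and 2.94-fold lower than in Oct4/GFP (−) cells. Each was past 2-fold in 7 of 8 other settings, with log2 differences as small as −0.89 and −0.42. Nestin/GFP (+) cells were 1.97-fold above Nestin/GFP (−) cells, just under 2-fold, and past it in 3 of 8 settings. Oct4/GFP (−) cells were 2.61-fold above Nestin/GFP (−) cells, but on the deposited values, without normalization, that difference was −0.64 on the log2 scale.

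TRIB3, a pseudokinase that ATF4 and DDIT3 induce and that restrains them, stood out on another array. It read 65 in Oct4/GFP (+), 125 in Nestin/GFP (+), 97 in Oct4/GFP (−) and 117 in Nestin/GFP (−) cells, or 87.5, 79.1, 308.9 and 91.7 once normalized. The highest array was thus Nestin/GFP (+) among the deposited values and Oct4/GFP (−), the dimmest array, after normalization. TRIB3 was 3.53-fold lower in Oct4/GFP (+) cells than in Oct4/GFP (−) cells, a difference past 2-fold in 7 of 8 other settings. It was 3.37-fold higher in Oct4/GFP (−) cells than in Nestin/GFP (−) cells, yet −0.27 on the log2 scale in the deposited values. The remaining log2 differences were 0.15 for Oct4/GFP (+) over Nestin/GFP (+) and −0.21 for Nestin/GFP (+) over Nestin/GFP (−), and each took the other sign in 2 of 8 settings.

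**Figure D2:**
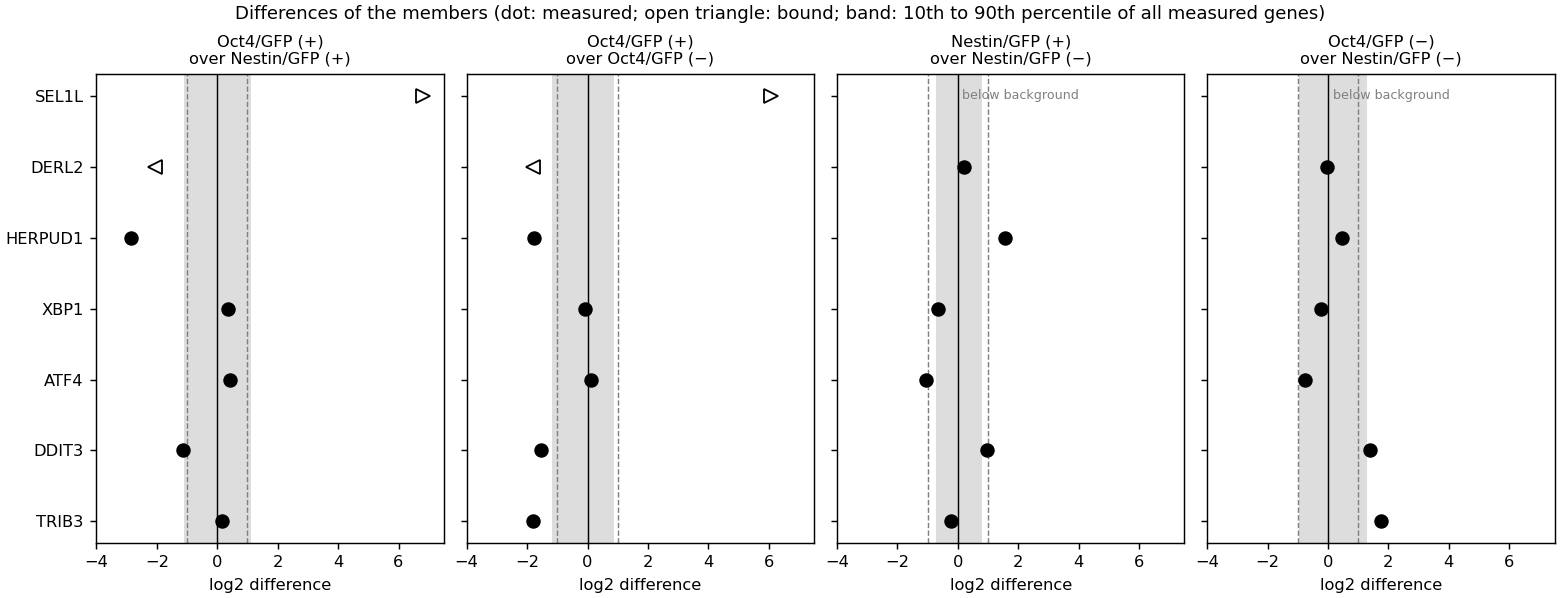
Log2 difference of 7 genes in each of the 4 comparisons, without the genes at or near background everywhere. Dots are measured on both arrays, open triangles are bounds, dashed lines mark 2-fold and the grey band spans the 10th to the 90th percentile of all genes measured in that comparison. HERPUD1 is at −2.87 for Oct4/GFP (+) over Nestin/GFP (+) and at 1.57 for Nestin/GFP (+) over Nestin/GFP (−).

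Counted together, the 10 genes followed the choice that was made of them. For Oct4/GFP (+) over Nestin/GFP (+), 8 entered, as genes above background on at least 1 of the arrays, of which 1 was past 2-fold higher and 3 lower, against a background over all genes that entered of 12.8% higher and 15.4% lower. In Oct4/GFP (+) over Oct4/GFP (−), 8 entered, 1 was higher and 4 were lower, against 8.47% and 15.6% of all genes. On the deposited values that comparison had 3 higher, SEL1L, XBP1 and ATF4, and 0 lower. The shares of all genes with a value were then 40.6% higher and 2.38% lower. For Nestin/GFP (+) over Nestin/GFP (−), 6 entered, with 1 higher and 1 lower, against 7.02% and 5.51%. The deposited values gave 2 higher, HERPUD1 and DDIT3, and 0 lower there, against 13.4% and 4.95% of all genes with a value. Between the GFP (−) arrays, Oct4/GFP (−) over Nestin/GFP (−), 6 entered, with 2 higher and 0 lower, against 16.7% and 9.68%. On the deposited values 0 were higher and 4 lower, DERL2, HERPUD1, XBP1 and ATF4, where 0.218% of all genes with a value were higher and 70.3% lower. Centring the arrays on their medians gave 0 higher and 2 lower, XBP1 and ATF4, against 6.95% and 28.2% of all genes with a value. Over the genes measured on both arrays, the median log2 difference in the same order of comparisons was 0.15, −1.56, 0.00 and 0.21 for the chosen genes, and 0.06, −0.04, 0.03 and 0.16 for all genes. Because the genes were chosen with these values known, nothing is read from their share.

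The rest of the pathway was followed through a list of 71 genes in 4 roles, which did not include the 10. Of these, 63 had a named probe, 44 were above background on at least 1 array, 22 on all 4 and 19 on none. Between the GFP (+) arrays, Oct4/GFP (+) over Nestin/GFP (+), 39 entered and 4 were past 2-fold higher and 5 lower, against 12.8% and 15.4% of all genes. Within the Oct4 line, Oct4/GFP (+) over Oct4/GFP (−), the counts were 5 higher and 8 lower of 37, against 8.47% and 15.6%. They were 4 higher and 2 lower of 40 for Nestin/GFP (+) over Nestin/GFP (−), against 7.02% and 5.51%, and 8 higher and 4 lower of 36 for Oct4/GFP (−) over Nestin/GFP (−), against 16.7% and 9.68%. Nothing is read from these shares, and they moved with the scaling: on the deposited values the counts higher and lower were 1 and 19, 15 and 1, 6 and 1, and 2 and 24 in this order, as all genes moved to 2.66% and 47.0%, 40.6% and 2.38%, 13.4% and 4.95%, and 0.218% and 70.3%. With quantile normalization the pathway medians were 0.18, −0.23, 0.07 and 0.30 on the log2 scale in this order of comparisons, against 0.06, −0.04, 0.03 and 0.16 for all genes.

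Of the sensors and their processing proteases, 5 had a probe. ERN1, the gene of IRE1, was above background on no array and EIF2AK3, that of PERK, on 1, so no change could be measured for them. For Oct4/GFP (+) over Nestin/GFP (+), 0 were higher and 1 lower of 2, MBTPS1, against 12.8% and 15.4% of all genes. For Oct4/GFP (+) over Oct4/GFP (−), 0 were higher and 1 lower of 2, MBTPS2, against 8.47% and 15.6%. There were 0 and 0 of 3 for Nestin/GFP (+) over Nestin/GFP (−), against 7.02% and 5.51%. For Oct4/GFP (−) over Nestin/GFP (−), 1 was higher, MBTPS2, and 0 lower of 4, against 16.7% and 9.68%. MBTPS1 and MBTPS2 are proteases that cut ATF6, and all 3 differences were bounds. Those of MBTPS2 rested on a reading of 19 in Oct4/GFP (−) cells at its brighter probe, near the limit of 13.9. With so few genes nothing is read from these shares. ERN1, EIF2AK3, MBTPS1 and MBTPS2, like NGLY1, EDEM2 and UBE2J2 below, were named after their values were seen.

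The ER folding genes gave differences in both directions. Of the 20 with a probe, 12 entered for Oct4/GFP (+) over Nestin/GFP (+), with 3 higher and 2 lower, against 12.8% and 15.4% of all genes. P4HB, a disulfide isomerase, was 2.07-fold higher there, and past 2-fold in 5 of 8 other settings. PDIA3, another, was at least 2.54-fold higher as the mean of 2 probes, of which 1 was set to the floor, and past 2-fold in 4 of 9 settings. Its probes differed: the brighter one read 358 in Oct4/GFP (+) and 587 in Nestin/GFP (+) cells, and the other 59 and 16, of which 16 was under the limit. The brighter probe alone gave a log2 difference of 0.61, under 2-fold. CANX, the lectin chaperone calnexin, was 3.70-fold lower, at 139 in Oct4/GFP (+) cells against 1286 in Nestin/GFP (+) cells, and was also 2.66-fold lower than in Oct4/GFP (−) cells, where it read 168. These were past 2-fold in 8 and 7 of 8 settings, the second falling to −0.27 on the deposited values. SDF2L1, an ER luminal protein of chaperone complexes, read 33 in Oct4/GFP (+) against 136 in Nestin/GFP (+) cells and was just past 2-fold lower, as in 5 of 8 other settings. SIL1, the nucleotide exchange factor of HSPA5, was 2.18-fold higher in Oct4/GFP (+), at 51, than in Oct4/GFP (−) cells, at 14, just past the limit. That difference was past 2-fold in 3 of 7 other settings and as small as 0.049 on the log2 scale. For Nestin/GFP (+) over Nestin/GFP (−), PDIA3 was at least 2.15-fold lower as the mean of both probes, past 2-fold in 3 of 9 settings, but −0.17 on the log2 scale at the brighter probe alone.

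The other genes of ER-associated degradation, 20 with a probe, are given beside the same shares of all genes. There were 0 higher and 1 lower of 13 for Oct4/GFP (+) over Nestin/GFP (+), against 12.8% and 15.4%, and 0 and 1 of 12 for Oct4/GFP (+) over Oct4/GFP (−), against 8.47% and 15.6%. There were 0 and 0 of 13 for Nestin/GFP (+) over Nestin/GFP (−), against 7.02% and 5.51%, and 2 and 1 of 13 for Oct4/GFP (−) over Nestin/GFP (−), against 16.7% and 9.68%. With so few genes nothing is read from these shares. The lower genes were NGLY1, a deglycosylating enzyme, as a bound in the first, and EDEM2, which marks misfolded glycoproteins, in the second. EDEM2 and UBE2J2, a ubiquitin-conjugating enzyme, were the 2 higher in the last. VCP, the ATPase that pulls substrates out of the membrane, was 2.45-fold lower there, and its log2 difference turned to 0.07 where an offset of 50 replaced the limit and the floor, a setting in which a second probe, above background on no array, entered the mean.

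The largest measured difference of the list was a gene of the integrated stress response in 3 comparisons, SESN2 or ASNS, and CANX in Oct4/GFP (+) over Nestin/GFP (+). In the Oct4 line, Oct4/GFP (+) over Oct4/GFP (−), 2 of 13 were higher and 5 lower, against 8.47% and 15.6% of all genes, with a median log2 difference of −0.62, against −0.04. For Nestin/GFP (+) over Nestin/GFP (−), 4 of 13 were higher and 1 lower, against 7.02% and 5.51%, with a median of 0.55, against 0.03. Of 11 genes for Oct4/GFP (−) over Nestin/GFP (−), 5 were higher and 1 lower, against 16.7% and 9.68%, with a median of 1.07, against 0.16. Between the GFP (+) arrays the counts were 1 higher and 1 lower of 12, against 12.8% and 15.4%, with a median of 0.00, against 0.06. On the deposited values the counts higher and lower were 3 and 1 of 11 in the Oct4 line, against 40.6% and 2.38% of all genes with a value. In the Nestin line they were 5 and 1 of 13, against 13.4% and 4.95%. Between the GFP (−) arrays they were 2 and 4 of 11, against 0.218% and 70.3%, and between the GFP (+) arrays 0 and 7 of 11, against 2.66% and 47.0%. The list was chosen with earlier results of these data known, so nothing is read from these shares and medians.

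ASNS, which makes asparagine, read 331 in Oct4/GFP (+), 1467 in Nestin/GFP (+), 420.0 in Oct4/GFP (−) and 199 in Nestin/GFP (−) cells. It was high in Nestin/GFP (+) and, after normalization, in Oct4/GFP (−) cells, the same pair of arrays as DDIT3. ASNS was 5.65-fold higher in Nestin/GFP (+) cells than in Nestin/GFP (−) cells, 8.52-fold higher in Oct4/GFP (−) cells than in Nestin/GFP (−) cells and 2.78-fold lower in Oct4/GFP (+) cells than in Oct4/GFP (−) cells. The last was past 2-fold in 7 of 8 other settings and −0.34 on the deposited values. SESN2, a stress-induced leucine sensor, read 47, 116, 103 and 37 in the same order of arrays. It was 5.35-fold lower in Oct4/GFP (+) cells than in Oct4/GFP (−) cells and 11.7-fold higher in Oct4/GFP (−) cells than in Nestin/GFP (−) cells. The differences of ASNS and SESN2 for Oct4/GFP (−) over Nestin/GFP (−) were past 2-fold in 8 of 8 other settings, but as small as 1.08 and 1.48 on the log2 scale, on the deposited values.

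Other ATF4 targets and regulators differed in direction among themselves. DDIT4, an inhibitor of mTORC1, was 2.64-fold higher in Nestin/GFP (+) cells than in Nestin/GFP (−) cells, past 2-fold in 7 of 8 settings, and 3.40-fold higher in Oct4/GFP (−) cells than in Nestin/GFP (−) cells, though −0.27 on the log2 scale as deposited. PHGDH, which starts serine synthesis, read 103 in Nestin/GFP (+) cells and 25, just past the limit, in Nestin/GFP (−) cells. Normalized, it was 3.41-fold higher in the former, past 2-fold in 6 of 8 settings and as small as 0.38 on the log2 scale. SLC3A2, the heavy chain of amino acid transporters, was 3.35-fold lower in Nestin/GFP (+) cells than in Nestin/GFP (−) cells, opposite in direction to ASNS and past 2-fold in 7 of 8 settings. CEBPB, a partner of ATF4, was 3.01-fold lower in Oct4/GFP (+) cells than in Nestin/GFP (+) cells, past 2-fold in 6 of 8 settings. PPP1R15A, the phosphatase subunit that ends the PERK signal, read 55 in Oct4/GFP (+), 44 in Nestin/GFP (+), 15 in Oct4/GFP (−) and 62 in Nestin/GFP (−) cells. Normalized, Oct4/GFP (+) exceeded Nestin/GFP (+) cells 2.31-fold and Oct4/GFP (−) cells 2.09-fold, past 2-fold in 4 of 8 and 3 of 7 other settings.

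The differences by GFP state ran in opposite directions in the Oct4 and Nestin lines for several of these genes. HERPUD1 was −1.76 on the log2 scale for Oct4/GFP (+) over Oct4/GFP (−) and 1.57 for Nestin/GFP (+) over Nestin/GFP (−), a gap of −3.33. DDIT3 had −1.56 in the Oct4 line and 0.98 in the Nestin line, a gap of −2.53. ATF4 had 0.12 in the Oct4 line and −1.04 in the Nestin line, a gap of 1.17. TRIB3 and XBP1 were negative in both lines. TRIB3 had −1.82 and −0.21, a gap of −1.61, and XBP1 −0.07 and −0.67, a gap of 0.60. Across the 2853 genes measured on every array the gap had a median of 0.01 and an SD of 1.11, and 133 genes, or 4.66%, lay below −2. The gap of HERPUD1 ranged between −3.80 and −2.29 over 7 other settings, and that of DDIT3 between −3.01 and −1.84 over 8. ASNS, at −3.97, and SESN2, at −3.82, had gaps in the same direction, but were named because their differences in these comparisons were large. Other genes of the list had gaps the other way, among them SIL1 at 1.73, PPP1R15A at 1.64 and SLC3A2 at 1.47. Nothing is read from a shared direction. With 1 array per population the difference between the lines could not be tested.

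**Figure D3:**
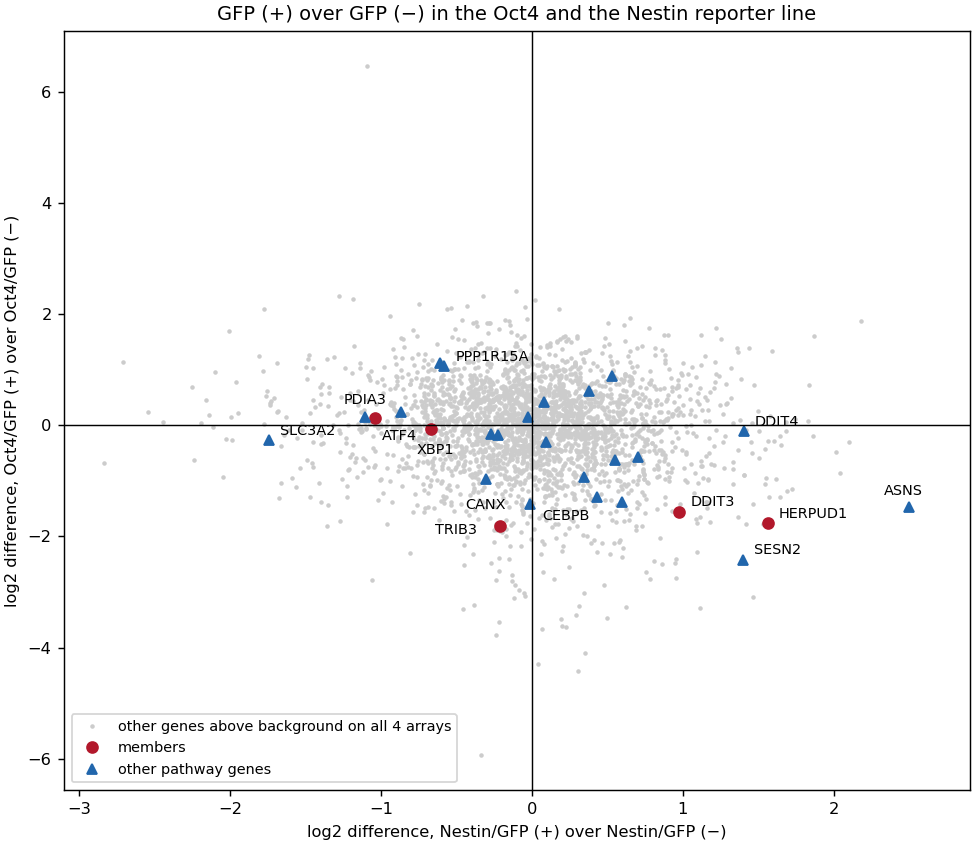
Log2 difference of Oct4/GFP (+) over Oct4/GFP (−) (vertical axis) against that of Nestin/GFP (+) over Nestin/GFP (−) (horizontal axis) for 2853 genes above background on all 4 arrays, 1 point per gene. Red circles are the 5 chosen genes measured on all arrays, blue triangles the 22 other pathway genes. HERPUD1, DDIT3, ASNS and SESN2 lie to the lower right, higher with GFP in the Nestin line and lower with GFP in the Oct4 line. Of the 2853 genes, 45 were past 2-fold in opposite directions, whichever line was higher. DDIT3, at 0.98 in the Nestin line, was not among them.

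A value that needs no scaling between arrays is how the 5 genes measured on all 4 arrays were balanced on each, taken as each gene's deposited log2 intensity minus the mean of the 5 on that array. By this measure HERPUD1 stood at −1.26 in Oct4/GFP (+), 0.91 in Nestin/GFP (+), −0.56 in Oct4/GFP (−) and −0.59 in Nestin/GFP (−) cells. It was lowest in Oct4/GFP (+) and highest in Nestin/GFP (+) cells on this scale. DDIT3 stood at 0.07, 0.69, 0.59 and −0.20 over the same order of arrays, with Nestin/GFP (+) and Oct4/GFP (−) as the higher pair. ATF4 ran the other way, at 0.21, −0.77, −0.74 and 0.43, with those arrays as the lower pair, and so did XBP1, at 1.26, 0.37, 0.31 and 1.12. TRIB3 stood at −0.28, −1.20, 0.40 and −0.76, highest in Oct4/GFP (−) cells. As the 5 values of an array sum to 0, a high value of one lowers the others, and the measure shows unequal change among the 5, not which gene changed.

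**Figure D4:**
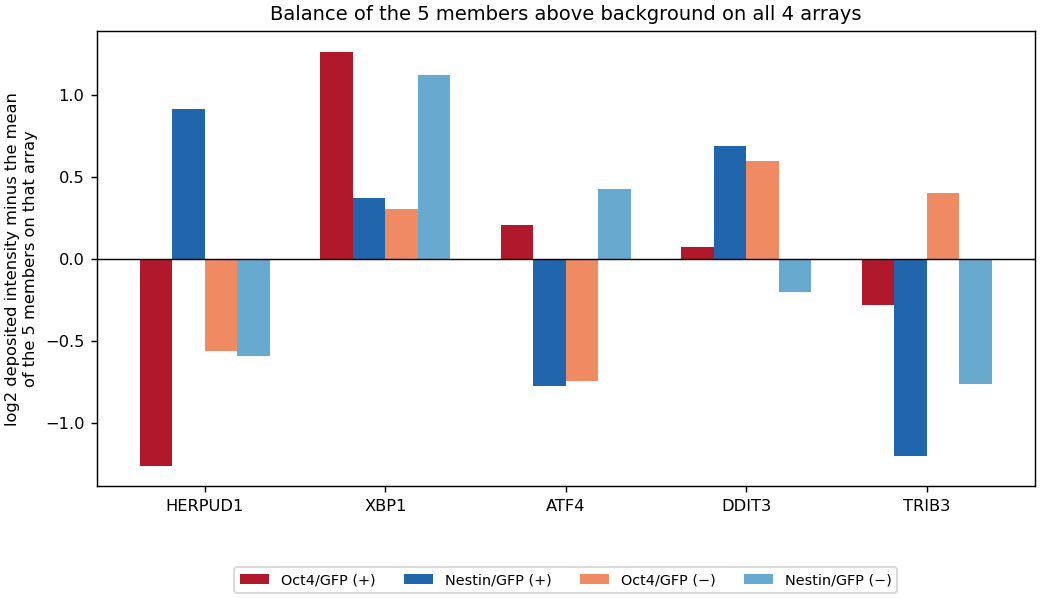
Deposited log2 intensity of each of the 5 genes minus the mean of the 5 on the same array, with 1 bar per array, to be compared within a gene. HERPUD1 runs between −1.26 in Oct4/GFP (+) and 0.91 in Nestin/GFP (+) cells, and ATF4 and XBP1 are lower in Nestin/GFP (+) and Oct4/GFP (−) than in the other 2 populations.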

How the data were processed

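RNA from 4 populations of H1299 cells was measured on 1 Cy3 array each. The authors deposited intensity values as background-subtracted linear whole numbers, between −31 and 48433, for 30968 probes. The scaling, filter and software were not given in the sources used here. Probe names came from the platform annotation, which gave 17397 probes 1 symbol and 13571 none. In Python 3.11.15 (pandas 2.3.3, numpy 2.4.6, statsmodels 0.14.6), arrays were quantile normalized, values under 3 noise SD were raised to the floor, and log2 differences were called past 2-fold. A gene with several probes took the mean of those that were above background on any array. The code was tested on simulated data. Scaling, limit, offset, probe choice and threshold were varied. With 4 arrays, their number limits the precision of every value.

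The 10 genes and all lists were chosen with earlier results of these data known. Of the other pathway genes, the text names, per comparison, the 3 with the largest measured difference each way past 2-fold whose probes agreed in direction. ERN1, EIF2AK3, HSP90B1, MBTPS1, MBTPS2, NGLY1, EDEM2 and UBE2J2 were named outside this rule. The balance of the 5 genes and the settings of the difference between lines were added after the data were seen.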

Additional observations from a re-analysis of the deposited data

Results flagged for a closer look

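Several of the chosen genes differed in sign between matched comparisons, and with 1 array per population none of these differences was tested. By GFP state, HERPUD1 had a log2 difference of −1.76 for Oct4/GFP (+) over Oct4/GFP (−) and 1.57 for Nestin/GFP (+) over Nestin/GFP (−). DDIT3 had −1.56 and 0.98, and ATF4 0.12 and −1.04, in the same order of lines. These signs held in 8 of 8 other settings, though the 0.12 of ATF4 was as small as 0.01. By reporter line, HERPUD1 had −2.87 for Oct4/GFP (+) over Nestin/GFP (+) and 0.46 for Oct4/GFP (−) over Nestin/GFP (−). DDIT3 had −1.15 among GFP (+) and 1.38 among GFP (−) cells, ATF4 0.42 and −0.75, and XBP1 0.36 and −0.24. The signs by reporter line depended on the normalization. On the deposited values HERPUD1 was −1.40 and DDIT3 −0.64 among GFP (−) cells, and ATF4 was −0.88 and XBP1 −0.97 among GFP (+) cells, so that each pair then had 1 sign.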

How the results depend on the processing

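The number of chosen genes past 2-fold, 4, 5, 2 and 2 for Oct4/GFP (+) over Nestin/GFP (+), Oct4/GFP (+) over Oct4/GFP (−), Nestin/GFP (+) over Nestin/GFP (−) and Oct4/GFP (−) over Nestin/GFP (−), was 3 for Oct4/GFP (+) over Oct4/GFP (−) and 4 for Oct4/GFP (−) over Nestin/GFP (−) on the deposited values. The directions differed: 3 higher and 0 lower in the first, against 1 and 4 with quantile normalization, and 0 higher and 4 lower in the second, against 2 and 0. All genes with a value moved likewise. In the first, 40.6% were higher and 2.38% lower, against 10.6% and 19.5% with quantile normalization. In the second, 0.218% were higher and 70.3% lower, against 21.4% and 12.4%. In the last comparison the deposited values also turned the sign of DDIT3 to −0.64, of TRIB3 to −0.27 and of DDIT4 to −0.27, where the median probe shifted by −1.67. An offset of 50, which has no limit and so averages in a second VCP probe above background on no array, turned VCP to 0.067. For Nestin/GFP (+) over Nestin/GFP (−) the count was 1 with the offset of 50, 4 at a threshold of 1.5-fold and 0 at 4-fold. At 4-fold it was 1 for Oct4/GFP (+) over Oct4/GFP (−) and 0 for Oct4/GFP (−) over Nestin/GFP (−). The shares of all genes were not taken with the offset or at these thresholds, so nothing is read from those counts. The bound of DERL2 for Oct4/GFP (+) over Nestin/GFP (+), −2.08, was −0.14 with a limit of 10 noise SD, which raises the floor. The lower bound of SEL1L stayed between 5.39 and 7.49 on the log2 scale over Nestin/GFP (+) and between 3.95 and 7.02 over Oct4/GFP (−). No paired analysis was possible because each population had 1 array.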
